A study of Saccharomyces cerevisiae with 6 samples.

Results

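The genes described here build peroxisomes and run the fatty acid oxidation that takes place inside them, in budding yeast whose only Hsp90 was either hsc82-W296A, a form of the chaperone Hsc82 with a tryptophan replaced by alanine, or wild-type (WT) Hsc82. They were found by symbol in the array's annotation, as every PEX gene with a number plus 14 named genes, with 1 probe set per gene. This gave 39 genes of the 5449 *S. cerevisiae* genes measured: 27 for biogenesis (25 PEX genes, INP1 and INP2), 10 for fatty acid oxidation and the 2 regulators OAF1 and PIP2. Any other PEX gene is not analysed here.

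The 3 hsc82-W296A cultures and the 3 WT Hsc82 cultures were of strain JJ816, which lacks chromosomal HSC82 and HSP82 and carries the version of HSC82 named by the group on a plasmid. All 6 were grown in the rich glucose medium YPD, harvested in exponential phase and hybridised to 1 Affymetrix array each. The labels call them biological replicates.

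Yeast breaks down fatty acids only in peroxisomes. A fatty acid enters as a coenzyme A ester through the paired transporter proteins Pxa1 and Pxa2 or is activated inside by Faa2, and Pox1, Fox2 and Pot1 then shorten it by successive rounds of oxidation. The organelle imports its enzymes folded: Pex5 binds proteins with the targeting signal at their end, and Pex7 with its partner Pex18 or Pex21 binds those with a signal near their start, the thiolase Pot1 among them. Genes for oxidation are repressed by glucose and induced by oleate through the factors Oaf1, Pip2 and Adr1.

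Values are the authors' log2 expression values, and changes are hsc82-W296A minus WT Hsc82 on that scale. Each change is given with the standard error (SE) of the limma fit, n = 3 arrays per group, and a Benjamini-Hochberg adjusted p over all 5498 *S. cerevisiae* probe sets. A gene is said to have risen or fallen where that p was under 0.05. A signal was taken as above background on an array where it exceeded the 95th percentile of the array's probe sets for another species, which was 7.91 to 8.02 on the hsc82-W296A arrays and 8.16 to 8.46 on the WT Hsc82 arrays. HSC82 itself read 14.53, 14.53 and 14.56 in hsc82-W296A, against 14.24, 14.30 and 14.30 in WT Hsc82. Its probes do not tell the substituted gene from the unsubstituted one, so they do not check the labels. The HSP82 probe set read 10.28 to 10.38 in hsc82-W296A and 9.98 to 10.05 in WT Hsc82, above background on all 6 arrays although the gene is deleted per the labels. HSC82 and HSP82 are near-identical, and whether HSC82 transcript gives this signal was not tested.

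Of the 39 genes, 23 rose and 4 fell in hsc82-W296A, and 12 did not pass the test. Among all 5449 genes, 37.1% rose and 30.3% fell, so that 67.3% were called in 1 direction or the other, and the share of these 39 genes called was 69.2%. The share of them that rose was 59.0% and the share that fell 10.3%. The 39 genes had a median fitted change of 0.33, or 0.29 with the genes that were at background on every WT Hsc82 array, POX1 and PEX18, set to the lower bounds given below, against 0.04 for all genes. The values of the groups did not overlap for 28 of the 39, with hsc82-W296A higher in 23 and lower in 5. Among all genes the groups did not overlap in 73.6%, with hsc82-W296A higher in 39.5% and lower in 34.1%.

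Oxidation genes had the higher median change. Of the 10, 7 rose and 2 fell, with a median of 0.72, against 15 risen and 2 fallen of the 27 biogenesis genes, with a median of 0.27. Called in either direction were 90% of the oxidation and 63.0% of the biogenesis genes, against 67.3% of all genes. The share that rose was 70% and 55.6%, against 37.1%, and the share that fell 20% and 7.4%, against 30.3%. The medians of the oxidation and the biogenesis genes differed by 0.44. With POX1 and PEX18 at their bounds the oxidation median was 0.47, that of biogenesis stayed at 0.27 and the difference was 0.20. Taken on each array relative to the WT Hsc82 mean of each gene, the median over oxidation genes was 0.68, 0.67 and 0.77 in hsc82-W296A, against -0.09, -0.02 and 0.14 in WT Hsc82. That over biogenesis genes was 0.25, 0.26 and 0.22 in hsc82-W296A, against -0.08, -0.0022 and 0.06 in WT Hsc82. Neither set of medians overlapped between the groups. Nor did the array medians over all *S. cerevisiae* probe sets, at 11.07 to 11.13 in hsc82-W296A and 10.94 to 11.04 in WT Hsc82. The fitted change was at least 2-fold in 2 of 10 oxidation genes, POT1 and POX1, and in 3 of 27 biogenesis genes, PEX18, PEX29 and PEX27, all of them higher, where 8.9% of all genes rose that far. The bound of POX1 does not reach 2-fold, which leaves 1 of 10 oxidation genes, and the other 4 genes stay past it. None of the 39 fell that far, as 0.863% of all genes did. The difference between the 2 sets of genes is a description without a test.

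**Figure D1:**
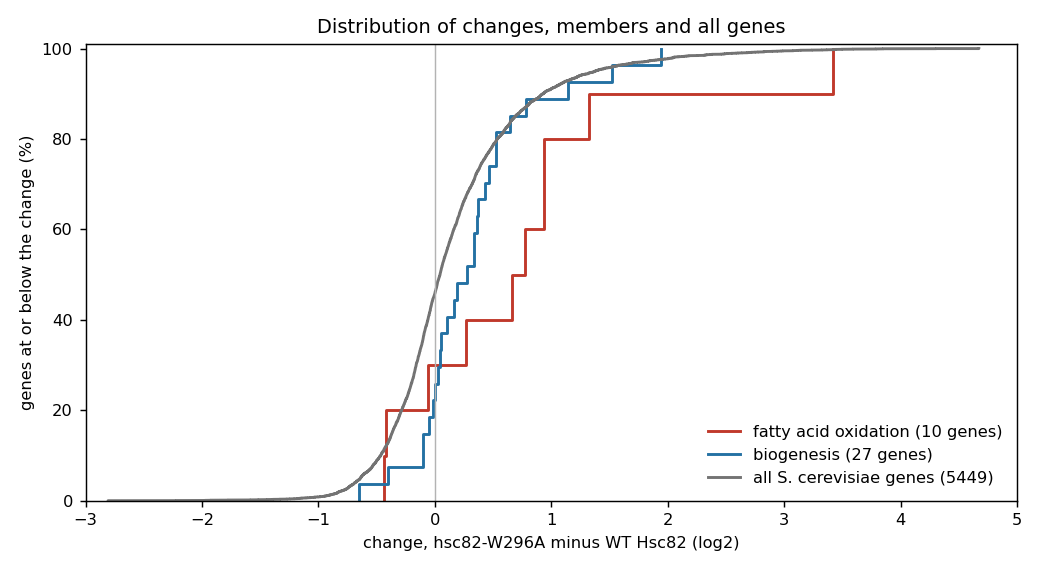
Share of genes (%, vertical axis) at or below each change (hsc82-W296A minus WT Hsc82, log2, horizontal axis) for the 10 oxidation genes, the 27 biogenesis genes and all 5449 genes. The biogenesis line lies right of that for all genes over its lower part and meets it near the top, and the oxidation line lies furthest right from its middle upwards, with medians of 0.27, 0.04 and 0.72 for biogenesis, all genes and oxidation.

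The 3-ketoacyl-CoA thiolase gene POT1 (YIL160C), whose product cleaves acetyl-CoA from the shortened chain, rose the most of the 39. It read 11.37, 11.86 and 11.69 in hsc82-W296A, against 8.37, 7.89 and 8.40 in WT Hsc82. The groups were far apart, and only 1 of the 3 WT Hsc82 arrays was above background. The change of 3.42 ± 0.175 (SE, adjusted p = 1.07e-05) equals a 10.7-fold difference as measured, or 9.54-fold with the 2 WT Hsc82 arrays at background set to the background level. POX1 (YGL205W), the acyl-CoA oxidase of the opening step, read 8.55, 8.52 and 8.70 in hsc82-W296A, against 7.28, 7.27 and 7.26 in WT Hsc82. All hsc82-W296A arrays were above background for POX1 and no WT Hsc82 array was, so the difference is given as at least 1.22-fold. The measured means were 8.59 and 7.27 (adjusted p = 6.49e-06 for the measured change), and the bound was not tested. FOX2 (YKR009C), the bifunctional enzyme between these steps, read 10.91, 11.04 and 10.92 in hsc82-W296A, against 10.62, 10.68 and 10.77 in WT Hsc82. Its groups did not overlap either, and its rise of 0.27 ± 0.060 (adjusted p = 0.00706) equals a 1.20-fold difference.

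The auxiliary enzymes, which handle unsaturated chains or release the acid, rose by amounts between those of FOX2 and POT1. ECI1 (YLR284C), an enoyl-CoA isomerase, read 10.89, 10.94 and 10.87 in hsc82-W296A, against 9.85, 9.92 and 10.13 in WT Hsc82, a rise of 0.93 ± 0.076 (adjusted p = 6.41e-05). Its homolog DCI1 (YOR180C) read 9.14, 9.13 and 9.32 in hsc82-W296A, against 8.10, 8.14 and 8.54 in WT Hsc82, where 1 of the 3 arrays was above background. The DCI1 rise of 0.94 ± 0.123 (adjusted p = 0.000566) was 0.77 with the other 2 arrays set to background and 0.47 after quantile normalization, where ECI1 rose by 0.74. TES1 (YJR019C), a peroxisomal thioesterase, read 10.05, 10.39 and 10.23 in hsc82-W296A and 9.42, 9.30 and 9.63 in WT Hsc82, a rise of 0.77 ± 0.113 (adjusted p = 0.00094). SPS19 (YNL202W), a dienoyl-CoA reductase, varied most within its groups. It read 10.44, 10.13 and 10.44 in hsc82-W296A, against 9.98, 9.72 and 9.31 in WT Hsc82, and the rise of 0.66 ± 0.175 (adjusted p = 0.0134) became 0.41 and was no longer called after quantile normalization (adjusted p = 0.115).

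None of the 3 genes for entry among the 39, taken here as transport (PXA1, PXA2) or activation inside the organelle (FAA2), rose. FAA2 (YER015W), the acyl-CoA synthetase inside the organelle, read 9.43, 9.60 and 9.50 in hsc82-W296A, against 9.81, 9.92 and 10.11 in WT Hsc82, and fell by 0.44 ± 0.086 (adjusted p = 0.00372). PXA1 (YPL147W), for 1 subunit of the transporter, read 10.13, 10.15 and 10.08 in hsc82-W296A, against 10.37, 10.62 and 10.61 in WT Hsc82, and fell by 0.42 ± 0.076 (adjusted p = 0.00258). The groups did not overlap for either gene, as in 73.6% of all genes. Both falls were called under each of the 15 alternative settings, some of which cannot alter a fitted change, as described with the processing. PXA2 (YKL188C), for the other subunit, read 9.79, 9.69 and 9.80 in hsc82-W296A, against 9.69, 9.83 and 9.93 in WT Hsc82, and was not called as deposited (change -0.06, adjusted p = 0.503). It stood at -0.38 after quantile normalization (adjusted p = 0.000819) and at -0.17 after median centring (adjusted p = 0.0312), both called lower. Thus 7 of 7 enzymes acting after transport and activation rose, with a median of 0.93 (0.77 with POX1 at its bound). Of the 3 entry genes 0 rose and 2 fell, with a median of -0.42. Among all genes 37.1% rose and 30.3% fell, with a median of 0.04. This division into entry and later steps was made after the values were seen.

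**Figure D2:**
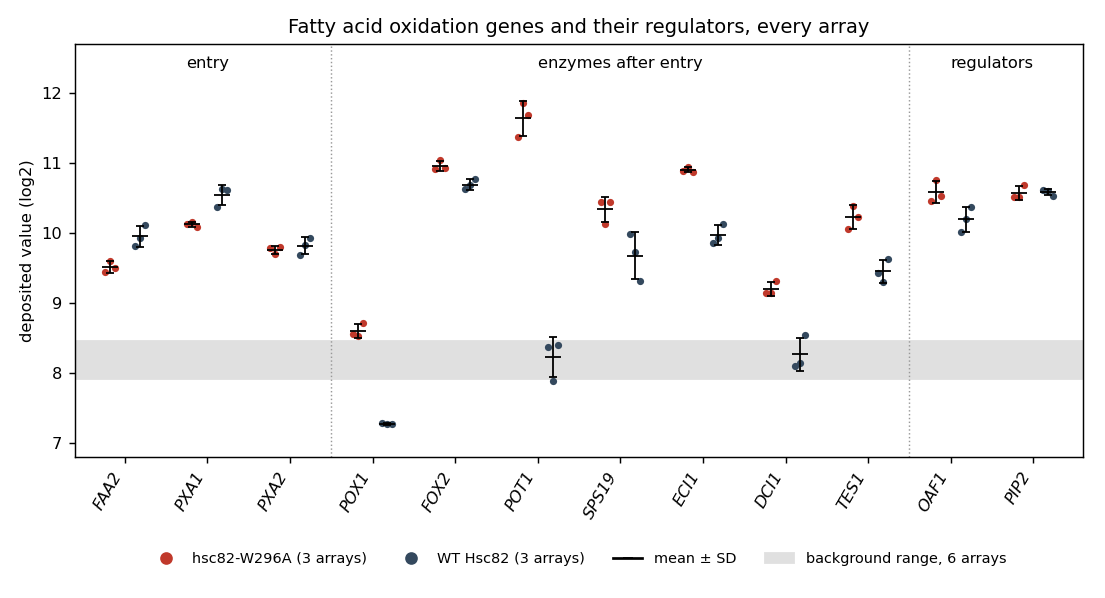
Deposited value (log2, vertical axis) of the 10 oxidation genes and the 2 regulators on each array, with mean ± SD; hsc82-W296A stands left of WT Hsc82 for each gene, and the grey band spans the background of the 6 arrays. POT1 reads 11.37 to 11.86 in hsc82-W296A against 7.89 to 8.40 in WT Hsc82, whereas FAA2 and PXA1 lie lower in hsc82-W296A.

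Of the pair of factors that bind oleate response elements together, only OAF1 passed the test as deposited. OAF1 (YAL051W), which senses fatty acids, read 10.45, 10.75 and 10.53 in hsc82-W296A, against 10.01, 10.20 and 10.37 in WT Hsc82. Its rise of 0.39 ± 0.113 (adjusted p = 0.0202) was no longer called after quantile normalization, at 0.19 (adjusted p = 0.0707). It was also not called without hsc82-W296A replicate 2 (0.30, adjusted p = 0.0613), without WT Hsc82 replicate 1 (0.29, adjusted p = 0.0501) or without WT Hsc82 replicate 2 (0.39, adjusted p = 0.0528). PIP2 (YOR363C), whose own gene is oleate-inducible, read 10.51, 10.51 and 10.69 in hsc82-W296A, against 10.62, 10.60 and 10.53 in WT Hsc82. The PIP2 groups overlapped, and the change was -0.02 with a 95% interval of -0.17 to 0.14.

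Among the receptors that carry enzymes into the organelle, 3 of 4 rose as deposited, where 37.1% of all genes rose. PEX18 (YHR160C), a partner of Pex7, had the largest fitted change of the biogenesis genes. It read 9.40, 9.36 and 9.53 in hsc82-W296A, against 7.38, 7.58 and 7.49 in WT Hsc82, where no array was above background. The difference is therefore given as at least 2.18-fold (measured means 9.43 and 7.48, adjusted p = 3.66e-06 for the measured change). PEX21 (YGR239C), the other partner of Pex7, read 9.57, 9.61 and 9.59 in hsc82-W296A, against 9.57, 9.60 and 9.44 in WT Hsc82. Its change was 0.06 with a 95% interval of -0.07 to 0.19, and the groups overlapped. After quantile normalization PEX21 stood at -0.31 and was called lower (adjusted p = 0.0155). PEX5 (YDR244W), the receptor for the signal at the protein's end, read 10.88, 10.80 and 10.84 in hsc82-W296A, against 9.99, 10.22 and 10.36 in WT Hsc82, a rise of 0.65 ± 0.095 (adjusted p = 0.000939). PEX7 (YDR142C) read 11.31, 11.28 and 11.27 in hsc82-W296A and 11.06, 11.06 and 11.16 in WT Hsc82. Its rise of 0.19 ± 0.046 (adjusted p = 0.00922) was not called after quantile normalization (0.10), median centring (0.07) or with background and middle matched (0.07), a rescaling described with the processing.

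The complex at which loaded receptors dock had 1 called gene in 4 as deposited, where 67.3% of all genes were called. PEX13 (YLR191W) read 10.33, 10.43 and 10.53 in hsc82-W296A, against 9.83, 10.04 and 10.01 in WT Hsc82, a rise of 0.47 ± 0.077 (adjusted p = 0.00166). Its docking partners PEX14 and PEX17, and PEX8, which links docking to the ubiquitin ligases, changed by -0.02, -0.05 and 0.03, and each overlapped between the groups. PEX17 was called lower in the quantile-normalized (-0.34) and the median-centred values (-0.17), and PEX8 turned to -0.08, -0.09 and -0.08 after quantile normalization, median centring and matching, without a call.

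Receptors are ubiquitinated and pulled back to the cytosol after they deliver their cargo. Of the ligases for this step, PEX2 (YJL210W) read 11.04, 11.07 and 11.11 in hsc82-W296A, against 10.55, 10.62 and 10.75 in WT Hsc82, and rose by 0.43 ± 0.061 (adjusted p = 0.000775). The partner ligase PEX10 read 10.63 to 10.69 in hsc82-W296A, inside the 10.54 to 10.74 of WT Hsc82, with a change of 0.00068 and a 95% interval of -0.15 to 0.15. After quantile normalization PEX10 stood at -0.15 and was called lower (adjusted p = 0.0276).

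The 2 membrane anchors of the export machinery rose as deposited, where 37.1% of all genes rose. PEX22, which holds the conjugating enzyme Pex4 at the membrane, read 11.21 to 11.28 in hsc82-W296A, against 10.81 to 10.97 in WT Hsc82, a rise of 0.37 ± 0.054 (adjusted p = 0.00101). PEX15, which holds the ATPase Pex6 there, read 11.12 to 11.21 in hsc82-W296A, against 10.85 to 10.93 in WT Hsc82. Its rise of 0.27 ± 0.048 (adjusted p = 0.00208) missed the threshold with background and middle matched, at 0.16 (adjusted p = 0.0514).

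The 2 anchored enzymes were not called as deposited. PEX4 read 9.05, 8.98 and 8.98 in hsc82-W296A, against 9.16, 9.06 and 9.09 in WT Hsc82. Those groups did not overlap, as in 73.6% of all genes, but the change of -0.10 did not pass (adjusted p = 0.0934). PEX4 was called lower at -0.54 after quantile normalization (adjusted p = 0.000975) and at -0.22 after median centring (adjusted p = 0.0163). PEX6 read 9.95, 10.25 and 10.29 in hsc82-W296A, against 9.51, 9.81 and 10.05 in WT Hsc82, and in each group replicate 1 was the lowest. Its change of 0.37 ± 0.152 (adjusted p = 0.0663) passed with the replicate number as a block, at the same 0.37 (adjusted p = 0.00166). PEX6 also passed with background and middle matched (0.33, adjusted p = 0.0457), with an intensity trend (0.37, adjusted p = 0.039), without hsc82-W296A replicate 1 (0.48, adjusted p = 0.0327) and without WT Hsc82 replicate 3 (0.50, adjusted p = 0.0215).

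Insertion of proteins into the peroxisomal membrane depends on Pex3 and the chaperone Pex19. PEX3 read 11.33 to 11.47 in hsc82-W296A, against 11.17 to 11.27 in WT Hsc82. The rise of 0.17 ± 0.055 (adjusted p = 0.0316) was the smallest called among the 39 and was lost in 7 of 15 alternatives, all 3 scalings among them, where it was 0.03 to 0.09. PEX3 was also not called without hsc82-W296A replicate 1 or 2 (0.13 and 0.18) or without WT Hsc82 replicate 1 or 2 (0.14 and 0.17). Among these runs the change itself was smaller only without a replicate 1. PEX19 read 11.55 to 11.65 in hsc82-W296A and 11.42 to 11.56 in WT Hsc82, overlapping ranges, with a change of 0.10 that turned to -0.015 once arrays were median-centred and to -0.05 under the matched rescaling.

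The Pex11 family, which drives elongation and division of peroxisomes, split in direction. PEX27 (YOR193W) read 11.62, 11.45 and 11.56 in hsc82-W296A, against 10.37, 10.49 and 10.36 in WT Hsc82, and rose by 1.14 ± 0.063 (adjusted p = 1.51e-05). PEX25 (YPL112C), its closest relative in the family, read 11.66, 11.53 and 11.56 in hsc82-W296A, against 11.92, 11.98 and 12.07 in WT Hsc82, and fell by 0.40 ± 0.060 (adjusted p = 0.000973). PEX11 (YOL147C), the oleate-inducible founder of the family, read 12.42, 12.32 and 12.44 in hsc82-W296A, against 12.07, 12.02 and 12.09 in WT Hsc82. The PEX11 rise of 0.34 ± 0.049 (adjusted p = 0.000939) was 0.14 and not called with background and middle matched (adjusted p = 0.127). PEX34, a membrane protein that acts with this family, overlapped between the groups with a change of 0.04, which was -0.04, -0.07 and -0.12 after quantile normalization, median centring and matching, without a call.

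Genes of the Pex28 to Pex32 proteins, which set the number and size of peroxisomes, also differed among themselves. PEX29 (YDR479C) read 10.48, 10.76 and 10.82 in hsc82-W296A, against 8.93, 9.15 and 9.40 in WT Hsc82, a rise of 1.52 ± 0.140 (adjusted p = 0.00011) and 2.88-fold. PEX28 (YHR150W), which acts with it, read 9.38, 9.52 and 9.43 in hsc82-W296A, against 8.95, 9.16 and 9.21 in WT Hsc82. The PEX28 change of 0.33 ± 0.078 (adjusted p = 0.00807) turned to -0.09 after quantile normalization, without a call (adjusted p = 0.179).

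PEX30 (YLR324W) read 9.93, 10.19 and 10.13 in hsc82-W296A, against 9.16, 9.27 and 9.46 in WT Hsc82, and rose by 0.79 ± 0.098 (adjusted p = 0.000442). Its paralog PEX31 (YGR004W) went the other way, with 9.95, 9.92 and 9.84 in hsc82-W296A, against 10.58, 10.51 and 10.58 in WT Hsc82, and fell by 0.65 ± 0.048 (adjusted p = 4.48e-05). This was the largest fall of the 39 and lay between -0.90 and -0.62 over the alternatives. PEX32 (YBR168W) read 10.29, 10.35 and 10.31 in hsc82-W296A and 10.27, 10.40 and 10.59 in WT Hsc82, and its change of -0.10 did not pass (adjusted p = 0.294). PEX32 was called lower in the quantile-normalized (-0.31) and the median-centred values (-0.22).

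Both inheritance genes rose as deposited, where 37.1% of all genes rose. INP1 (YMR204C), which retains peroxisomes in the mother cell, read 9.83, 9.61 and 9.74 in hsc82-W296A, against 9.21, 9.14 and 9.26 in WT Hsc82, a rise of 0.52 ± 0.068 (adjusted p = 0.000528). INP2 (YMR163C), which links them to the myosin Myo2 for transport into the bud, read 10.11, 10.21 and 10.36 in hsc82-W296A, against 9.62, 9.64 and 9.85 in WT Hsc82, a rise of 0.53 ± 0.088 (adjusted p = 0.00177). The groups overlapped for neither gene. After quantile normalization INP2 stayed called at 0.25 (adjusted p = 0.00821), and INP1 stood at 0.15 and was not called (adjusted p = 0.182).

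**Figure D3:**
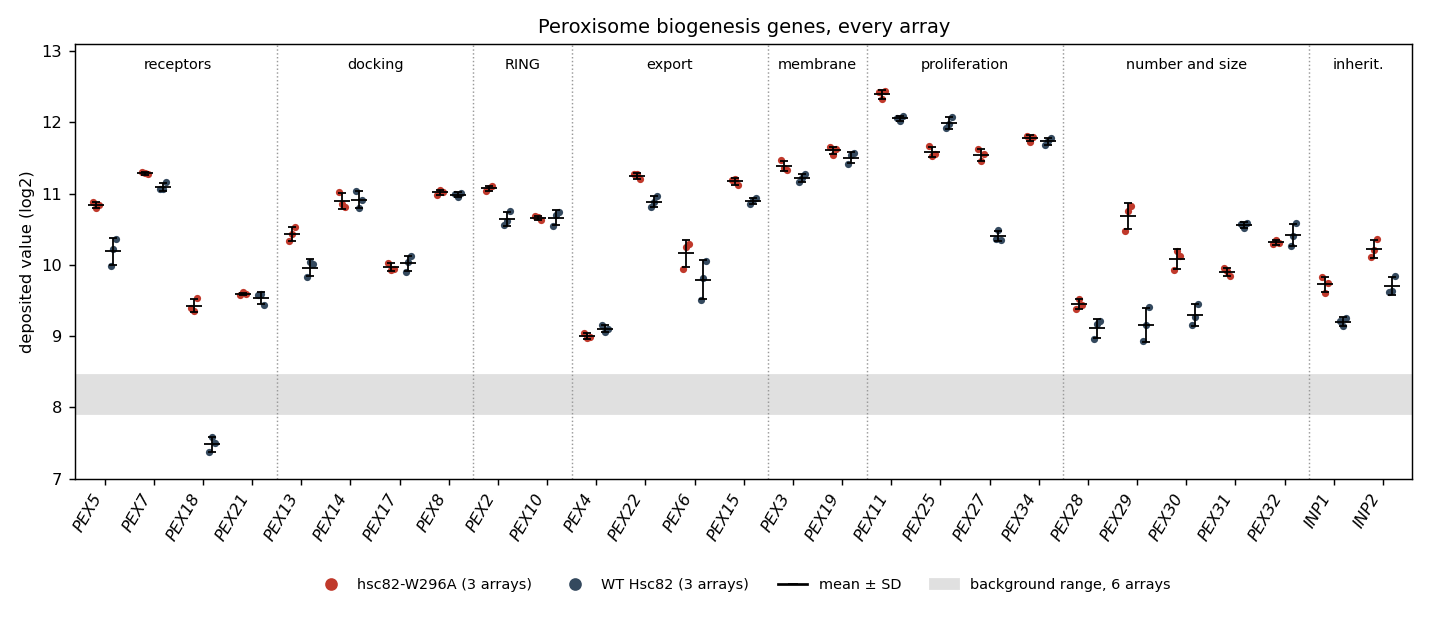
Deposited value (log2, vertical axis) of the 27 biogenesis genes on each array, ordered by role, with mean ± SD; hsc82-W296A stands left of WT Hsc82 for each gene, and the grey band spans the background of the 6 arrays. PEX18, whose WT Hsc82 values lie below the band, PEX29 and PEX27 lie more than 1 log2 unit higher in hsc82-W296A, PEX31 and PEX25 lie lower, and PEX14, PEX17, PEX8 and PEX10 overlap.

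Relatives within these families were set side by side by the difference of their changes, which is the same for any shift of a whole array. All 11 pairs within the Pex18, Pex11, Pex28, Pex30, Eci1, Pxa and Oaf1 groups were computed. The pairs were chosen with the values known and have no test. The change of PEX18, at its bound, exceeded that of PEX21 by at least 1.07. The change of PEX27 exceeded that of PEX25 by 1.54 ± 0.072 (SE, n = 3 arrays per group), and that of PEX30 exceeded PEX31 by 1.44 ± 0.131. PEX29 exceeded PEX28 by 1.19 ± 0.112, so that 4 of the 11 pairs differed by at least 1. The last 3 of these differences were 1.49, 1.35 and 1.34 after quantile normalization. At the other end, DCI1 and ECI1 differed by 0.0019 ± 0.097, their groups overlapping, and this difference was -0.27 after quantile normalization, 0.12 with background and middle matched and -0.17 with DCI1 set to background on 2 WT Hsc82 arrays. PXA2 exceeded PXA1 by 0.36 ± 0.062, and OAF1 exceeded PIP2 by 0.40 ± 0.178.

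**Figure D4:**
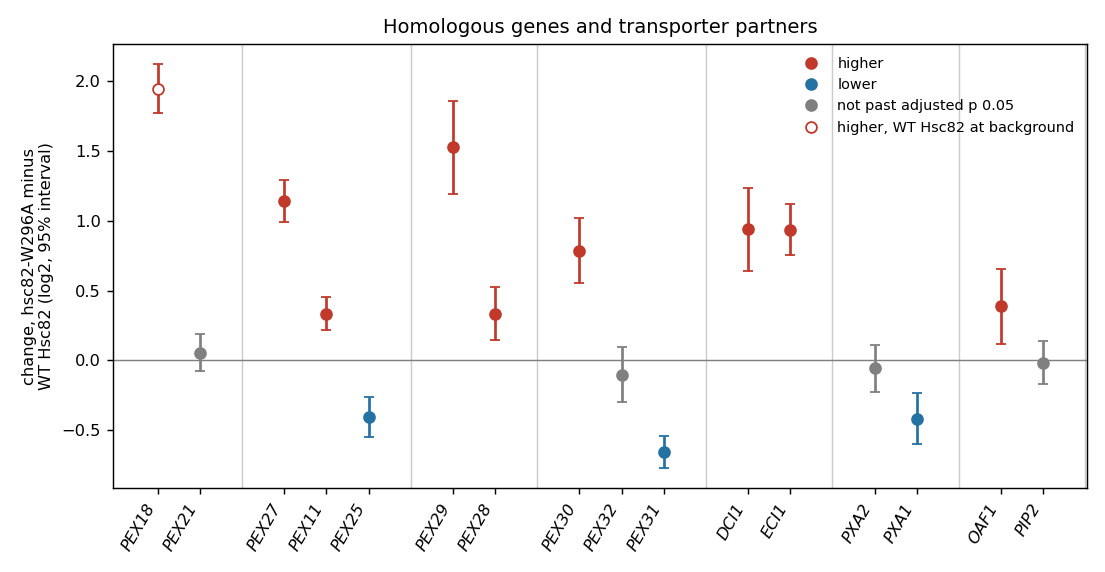
Change (hsc82-W296A minus WT Hsc82, log2, vertical axis) with its 95% interval from the limma fit for genes grouped by homology, or as the 2 subunits of the Pxa1 and Pxa2 transporter. Within the Pex18, Pex11, Pex28 and Pex30 groups the genes spread, as from 0.79 for PEX30 to -0.65 for PEX31, whereas DCI1 and ECI1 lie at 0.94 and 0.93. The open symbol of PEX18 is its measured change, with WT Hsc82 at background on all 3 arrays, so the difference is at least 2.18-fold.

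The size of the smaller changes depended on how the arrays were scaled. Over the 3 other scalings the oxidation median was 0.44 to 0.68 and that of biogenesis 0.09 to 0.16, while the median of all genes moved to between -0.09 and -0.06. Relative to all genes, the oxidation median stood 0.67 higher as deposited and 0.53 to 0.74 higher under these scalings, and the biogenesis median stood 0.23 higher as deposited and 0.18 to 0.23 higher. These medians use measured values throughout. With POX1 and PEX18 at their bounds the oxidation median as deposited was 0.47 and that of biogenesis 0.27. Of the 23 genes that rose, 15 were called higher under each alternative run for them, 9 of the 15 in biogenesis and 6 of the 7 in oxidation. All 4 genes that fell (PEX25, PEX31, FAA2 and PXA1) were called lower under each. The same counts over all genes are not given here, so these counts have no comparison with all genes. After quantile normalization 7 biogenesis genes were called lower and 11 higher, where 2 were lower and 15 higher as deposited. Among all 5449 genes, 2428 were called lower and 1554 higher after quantile normalization, where 1650 were lower and 2019 higher as deposited.

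**Figure D5:**
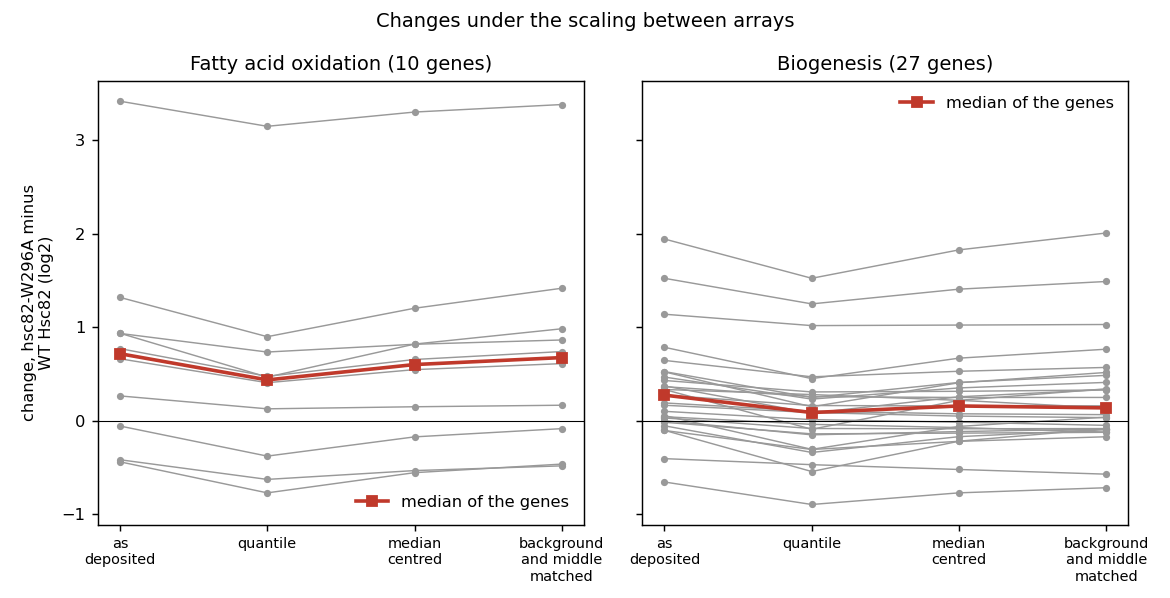
Change of each gene (hsc82-W296A minus WT Hsc82, log2, vertical axis) as deposited and under 3 other scalings (horizontal axis), for oxidation and biogenesis genes, with grey lines for genes and red squares for the median. The oxidation median is 0.72, 0.44, 0.60 and 0.68 from left to right, and the biogenesis median 0.27, 0.09, 0.16 and 0.14. All are measured values, without the bounds of POX1 and PEX18.

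Other genes of the pathway came from 4 lists. Of 18 further peroxisomal enzymes and transporters, 14 rose and 3 fell, with a median change of 0.84, or 0.70 with CTA1 at its bound, where 37.1% of all genes rose and 30.3% fell with a median of 0.04. The counts were the same under the 3 other scalings. The 3 genes that fell were ANT1, NPY1 and AAT2, with changes of -0.55, -0.40 and -0.27. The listed PXP1 and PXP2 are not analysed here. MLS1, a malate synthase, rose by 2.13 ± 0.090 (adjusted p = 5.62e-06), and CAT2, the carnitine acetyltransferase that exports acetyl units, by 1.93 ± 0.128 (adjusted p = 2.99e-05). PCD1, a pyrophosphatase acting on coenzyme A, rose by 1.80 ± 0.099 and PNC1, a nicotinamidase that travels into peroxisomes with Pex7, by 0.88 ± 0.044. CTA1, the peroxisomal catalase that removes the hydrogen peroxide made by Pox1, was picked out after its values were seen. It read 8.74, 8.96 and 8.94 in hsc82-W296A, against 7.65, 7.79 and 8.03 in WT Hsc82, where no array was above background. The difference was at least 1.49-fold (measured means 8.88 and 7.83, adjusted p = 0.000176 for the measured change).

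Fatty acid activation and the carnitine shuttle outside the organelle had 5 of 7 genes higher and 1 lower (all genes 37.1% and 30.3%), with a median of 0.87. After quantile normalization 4 were higher and the median was 0.44. CRC1, the mitochondrial carnitine carrier, read 9.47, 9.31 and 9.78 in hsc82-W296A, against 6.89, 6.97 and 7.25 in WT Hsc82, none of these above background. Its difference was at least 2.32-fold (measured means 9.52 and 7.04, adjusted p = 1.75e-05 for the measured change). YAT1, a carnitine acetyltransferase on the mitochondrion, rose by 0.87 ± 0.128 (adjusted p = 0.000946). The acyl-CoA synthetase gene FAA1 rose by 0.91 ± 0.079 (adjusted p = 8.31e-05), while FAA3, of the same family as FAA1 and FAA2, fell by 0.55 ± 0.086 (adjusted p = 0.00128).

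In the list of fission, movement and turnover, 5 of 8 rose and 0 fell as deposited (all genes 37.1% and 30.3%), and 2 fell after quantile normalization. FIS1 and DNM1, of the division machinery that peroxisomes share with mitochondria, rose by 0.70 ± 0.042 (adjusted p = 2.02e-05) and 1.07 ± 0.094 (adjusted p = 9.07e-05). ATG36, the receptor that marks peroxisomes for autophagy, rose by 1.19 ± 0.147 (adjusted p = 0.000426), and ATG11, the scaffold it binds, by 0.56 ± 0.055 (adjusted p = 0.000154).

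Of 6 further regulators of fatty acid use, 4 rose and 1 fell (all genes 37.1% and 30.3%), and 3 rose and 2 fell after quantile normalization. ADR1, the activator that acts with Oaf1 and Pip2 on oxidation genes when glucose is gone, read 11.30, 11.76 and 11.65 in hsc82-W296A, against 8.77, 9.14 and 9.33 in WT Hsc82. This rise of 2.49 ± 0.172 (adjusted p = 3.43e-05) was 2.24 to 2.43 under the other scalings. SNF1, the kinase of glucose derepression, rose by 0.75 ± 0.123 (adjusted p = 0.00158) and SPT23, an activator of fatty acid desaturation, by 0.41 ± 0.111 (adjusted p = 0.0151). MIG1, the glucose repressor, rose by 0.38 ± 0.131 (adjusted p = 0.0365) as deposited, but was not called after quantile normalization (0.25, adjusted p = 0.116) or median centring (0.27, adjusted p = 0.0564).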

How the data were processed

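Total RNA of 6 cultures was labelled as biotinylated cRNA and hybridised to 1 array each, per the labels. The deposited values are taken as log2 from their range. Array means over all probe sets lie at 8.91 to 8.92, and medians over *S. cerevisiae* probe sets at 10.94 to 11.13. Limma is listed in the submitters' processing notes, without its use. How background, normalization and probe summarization were handled is not given in the sources used here. Of 10928 probe sets, 5498 mapped by gene ID to 5449 *S. cerevisiae* genes of a RefSeq table (assembly R64). Another 1746 mapped to another species, and 3471 had no gene or several. The probe set with the highest mean stood for a gene.

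A linear model (lmFit, then eBayes; limma 3.58.1, R 4.3.3) was fitted to all *S. cerevisiae* probe sets without a block, with Benjamini-Hochberg adjustment and a threshold of 0.05. Where no array of 1 group was above background, the fold is a lower bound: the brighter group's mean over the mean, per array, of the higher of the background and the probe set's own value. The adjusted p printed with a bound is that of the measured change, and the bound itself was not tested. Deviations from group means correlated at 0.405, 0.148 and 0.364 between arrays of the same replicate number, all above 0.1, and at -0.387 to 0.139 between arrays of different numbers. The 0.1 criterion for pairing was thus met. However, hsc82-W296A replicate 2 with WT Hsc82 replicate 3 (0.107) also passed it. So did hsc82-W296A replicate 3 with WT Hsc82 replicate 2 (0.139). The criterion therefore does not settle whether the numbers pair the arrays, and no label names a shared batch. Printed values come from the fit without the block, and the block is an alternative. Between the groups arrays correlated at 0.917 to 0.941, and within them at 0.995 to 0.998.

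The 15 alternatives were a replicate block, quantile normalization, median centring, matching each array's 2 medians (other species, *S. cerevisiae*) to their means over arrays (background and middle matched), leaving out dim probe sets, an intensity trend, a robust prior, leaving out probe sets with shared IDs, averaging a gene's probe sets, and leaving out each array. Each of the 39 genes had a single probe set, and none had a shared ID. Averaging probe sets or leaving out shared IDs therefore could not alter their fitted changes. These alternatives and the robust prior moved none of the 39 across the threshold. All 39 genes and the lists were chosen with earlier results of these data known. Described in full were genes called with a change of at least 1 and examples of each role, and in other lists the 4 genes with the smallest adjusted p. The fit was also run on simulated data with independent noise and few changed probe sets, all changed upwards. That setting differs from these data, so the simulation does not check the calls made here. Tables and figures were made in Python 3.11.15 with pandas 2.3.3, numpy 2.4.6 and matplotlib 3.10.9. Promoter and protein sequences were not used here.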

Additional observations from a re-analysis of the deposited data

How the results depend on the processing

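Of the 39 genes, 19 kept direction and side of the threshold under every alternative run for them. After quantile normalization 10 of the 39 were called lower, 7 of them in biogenesis, where the biogenesis median was 0.0882 and the oxidation median 0.44. After median centring 8 were called lower, 5 of them in biogenesis, and the medians were 0.16 and 0.60. With background and middle matched the biogenesis median was 0.14. The cause was not tested. The share of calls that were higher among all genes was 55.0% as deposited, and 39.0%, 42.5% and 44.1% under these 3 scalings.

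Direction turned for genes with small changes, and for PEX28, called higher at 0.33 as deposited. After quantile normalization PEX8, PEX10, PEX21, PEX28 and PEX34 stood at -0.0826, -0.15, -0.31, -0.0904 and -0.0379. After median centring PEX8, PEX10, PEX19, PEX21 and PEX34 stood at -0.0854, -0.12, -0.0148, -0.0601 and -0.0725. With background and middle matched PEX8, PEX10, PEX19 and PEX34 stood at -0.0831, -0.0875, -0.0488 and -0.12. Leaving out 1 array in turn, the ranges were -0.0589 to 0.0408 for PEX10, -0.0806 to 0.0436 for PEX14, -0.0754 to 0.0153 for PIP2 and -0.12 to 0.00050 for PXA2. Over these runs without 1 array, the difference of the oxidation and biogenesis medians ranged from 0.38 to 0.56, the highest without WT Hsc82 replicate 1, and after quantile normalization it was 0.35. These differences use measured values, and with POX1 and PEX18 at their bounds the difference as deposited was 0.20.

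With the replicate number as a block 24 of the 39 rose and 4 fell, PEX6 being the gene added, and it changed no other call. Leaving out dim probe sets removed POX1. In place of depth, an array is limited by its background. PEX18 and POX1 were at background on all WT Hsc82 arrays, and POT1 and DCI1 on 2 of the 3.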
